A study of Mus musculus with 6 samples.

Results

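The 10 genes described here encode the DNA-binding subunits of NF-kB and the proteins that hold them in check. They were taken by symbol from the 55421 Ensembl genes of the deposited count table, and all 10 were among the 14469 genes that passed the filter on low counts. The subunits were Nfkb1, Nfkb2, Rel, Rela and Relb. The inhibitors were Nfkbia and Nfkbie, which encode cytoplasmic IkB proteins, and Tnfaip3, which encodes the deubiquitinase A20. The nuclear IkB proteins were encoded by Nfkbiz and Bcl3.

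NF-kB acts as pairs of subunits that IkB proteins retain in the cytoplasm until the IKK kinases mark IkB for destruction, after which the released pairs enter the nucleus and bind kappaB sites in promoters. Several IkB genes, Tnfaip3 and some subunit genes carry such sites themselves, so the response switches on its own inhibitors. In macrophages the pathway drives inflammatory cytokines and chemokines downstream of Toll-like and TNF receptors.

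RNA was measured in tumor-associated macrophages (TAMs), live CD45+CD11b+F4/80+Ly6G- cells sorted from collagenase-digested tumors of mice implanted with MC17-51 fibrosarcoma cells (M17 in the labels) and collected on day 15, with 3 libraries from Pdcd1f/fLysMcre mice and 3 from Pdcd1f/f mice. Both groups carried the floxed Pdcd1 alleles, which encode PD-1, and the mice used for implantation were 8 to 12 weeks old. In Pdcd1f/fLysMcre mice Cre driven by the lysozyme (LysM) promoter deletes Pdcd1 in cells of the myeloid lineage at large, not in TAMs alone, and no control with Cre and without the floxed alleles was analysed here. The labels do not say that the 3 libraries of a genotype came from separate mice, so the p-values below measure the spread between these libraries.

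Library totals lay between 41833823 and 51417209 counts. Lyz2, the gene whose locus carries the Cre, checked the labels: Pdcd1f/f TAMs had 189889 to 242873 counts, against 418 to 503 counts with Cre. The TAMs with Cre thus also lost nearly all Lyz2 RNA (log2 fold change -8.99), and Lyz1 rose (4.54). The part of this loss in the values below cannot be told apart from that of the Pdcd1 deletion. Pdcd1 had 10, 12 and 15 counts against 7, 16 and 11, too few to check the deletion. Pdcd1f/f replicate 1 and Pdcd1f/fLysMcre replicate 2 stood apart: across 10596 genes their deviations from the genotype mean ran against GC content (Spearman's rho of -0.76 and -0.70), while rho in the other libraries lay between 0.19 and 0.71. Such deviations cancel within a genotype, so a trend in 1 library is mirrored in the others. With Cre, replicate 3 (rho of 0.71) deviated about as strongly as replicate 2, in the other direction. The genotypes also differed in sex-linked transcripts. Xist fell in the Pdcd1f/fLysMcre libraries (log2 fold change -0.99) and all 4 Y-linked transcripts rose (1.5 to 2.31), and every library contained both kinds. Raw counts per library were 8675 to 28588 for Xist and 627 to 3221 for the Y-linked Ddx3y. Whether a library was a single mouse or a pool of both sexes is not in the labels, so what a replicate stands for is not known. The contribution of sex to the values below cannot be told apart from that of the genotype.

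All members were well expressed. Normalized counts divided by the exon length in kb gave levels that can be compared between genes. On this scale Nfkbia stood highest in Pdcd1f/f TAMs at 35800.2 ± 1965 (SD, n = 3), followed by Tnfaip3 at 7978 ± 8.97, Nfkbie at 5655 ± 243 and Nfkbiz at 5376 ± 196. The subunits followed, with Nfkb2 at 2487 ± 321, Rel at 2059 ± 223, Rela at 1951 ± 194, Nfkb1 at 834 ± 10.3 and Relb at 823 ± 64.9, and Bcl3 was lowest at 617 ± 82.9. The library values of Nfkbie and Nfkbiz overlapped, as did those of Nfkb2 and Rel, of Rel and Rela, and of Nfkb1 and Relb.

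In Pdcd1f/fLysMcre TAMs the order per kb was the same except that Rel (2525 ± 174) stood above Nfkb2 (2437 ± 334), and these were the only neighbours whose library values overlapped. Nfkbia lay above 99.7% of all genes tested per kb and Bcl3 above 74.3%. The place of Nfkb1 depended on the length used, since its annotated exons add up to 12061 bases. By its longest transcript, of 4149 bases, its level in Pdcd1f/f TAMs was 2424 per kb, between Nfkb2 (2964) and Rela (2207), with Rel (2059) below Rela. With Cre the same length put Rel (2525) below Nfkb2 (2905) and Nfkb1 (2747). It also put Nfkbiz (6556) above Nfkbie (5728) in Pdcd1f/f TAMs.

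**Figure D1:**
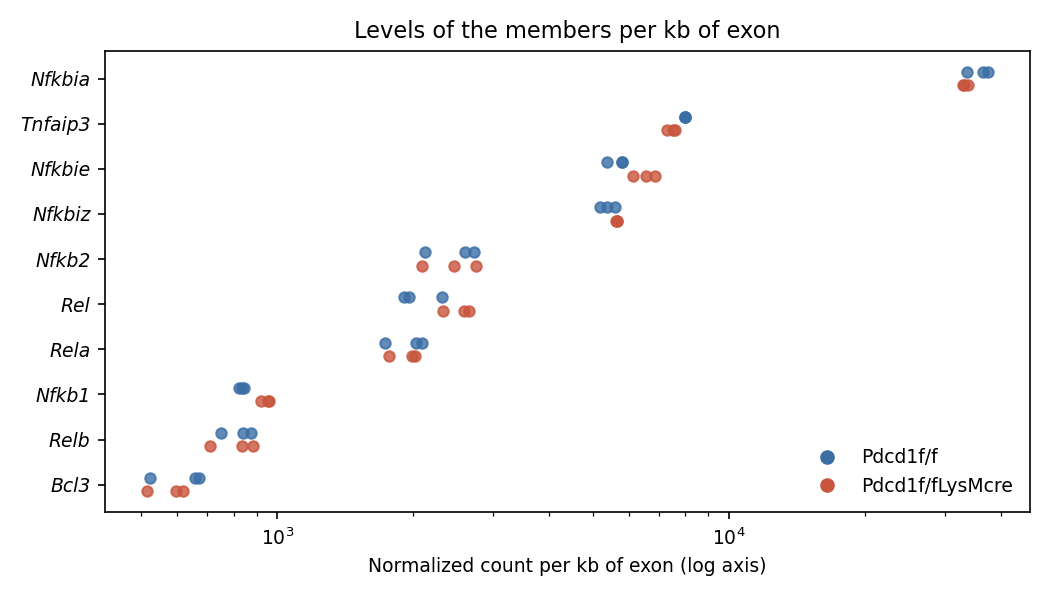
Normalized count per kb of exon (log axis) of the 10 members in each of the 3 Pdcd1f/f (blue) and 3 Pdcd1f/fLysMcre (red) libraries, ordered by the Pdcd1f/f mean. Nfkbia stood above all other members in every library, and the inhibitors and Nfkbiz stood above the subunits.

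The promoters were read because binding of NF-kB to its own regulators is part of how the pathway works. RefSeq starts on GRCm38.p6 were at hand for Nfkb2 (3 starts), Rel, Rela, Nfkbia, Nfkbie, Tnfaip3 (2 starts) and Bcl3, and not for Nfkb1, Relb and Nfkbiz. The 250 bases before each start were searched on both strands for the 10-base kappaB consensus. A match lay in 7 of the 10 windows, belonging to 5 of the 7 genes, Nfkb2, Rel, Nfkbia, Nfkbie and Tnfaip3. Of all 32851 promoter windows of this length, 7.25% held a match. Their median GC content was 52.4%, while 9 of the 10 member windows had 57.6% to 77.6%, so the shares are of windows that differ in base composition. No match says only that these letters are not in the window, as in Rela, Bcl3 and the other Tnfaip3 start.

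The 30 bases around the matches of the genes with the highest levels, and of Rel, are shown 5′ to 3′ on the strand of the gene, with the match in capitals. In Rel and Nfkb2 the consensus matched on both strands 1 base apart, which makes 11 capitals. For Tnfaip3 and Nfkb2, which have further matches, 1 place is shown.
Nfkbia: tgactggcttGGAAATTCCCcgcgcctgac
Nfkbie: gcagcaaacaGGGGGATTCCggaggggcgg
Tnfaip3: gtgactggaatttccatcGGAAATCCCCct
Rel: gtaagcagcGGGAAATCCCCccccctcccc
Nfkb2: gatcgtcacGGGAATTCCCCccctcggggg
The windows lie at chr12:55492657-55492686 (minus strand), chr17:45555584-45555613 (plus), chr10:19015411-19015440 (minus), chr11:23771041-23771070 (minus) and chr19:46304689-46304718 (plus). The capitals start 29 bases before the start site in Nfkbia, 106 in Nfkbie, 12 in Tnfaip3, 92 in Rel and 39 in Nfkb2. Genes with a match were found among the members with higher values in Pdcd1f/fLysMcre TAMs (Rel, Nfkbie), with lower values (Tnfaip3) and with overlapping values (Nfkbia, Nfkb2). A match is a description of the sequence, and binding was not measured.

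The comparison asks whether the transcripts of the pathway's own components differ between Pdcd1f/fLysMcre and Pdcd1f/f TAMs. In TAMs from Pdcd1f/fLysMcre mice, 3 members had higher values at an unadjusted p below 0.05 in edgeR, the subunit genes Rel (1.23-fold) and Nfkb1 (1.14-fold) and the inhibitor gene Nfkbie (1.15-fold). Of all genes, 12.3% were higher and 11.9% lower at this level. The inhibitor genes Nfkbia and Tnfaip3 had slightly lower values, by 0.931-fold and 0.938-fold. None of the 10 members passed edgeR's quasi-likelihood test after Benjamini-Hochberg adjustment over all genes, which called 2.42% of all genes higher and 3.01% lower. DESeq2 called 3 members higher, Rel, Nfkb1 and Nfkbie, against 5.23% of all genes (5.82% were called lower, with 0 members), and limma on the normalized table called 0. The library values of 4 members lay higher without overlap, against 14.1% of all genes, and those of 1 member lower, against 13.1%. The members' median log2 fold change was -0.02 and that of all genes tested -0.0026. This median depended on the fit. With the offsets for GC content and gene length described below the 2 medians were 0.13 and 0.015, and without Pdcd1f/f replicate 1 they were -0.097 and -0.0036. Since RNA was taken from bulk cells, fewer cells that express a gene and less of its RNA per cell cannot be told apart.

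**Figure D2:**
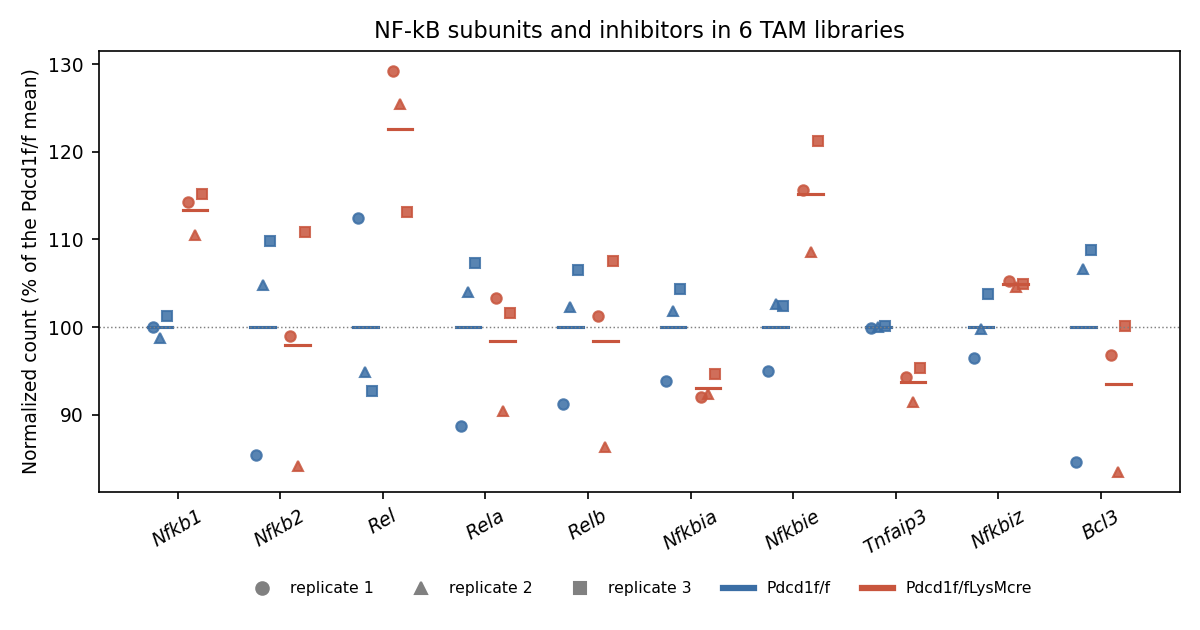
Normalized count of each member in each library as a percentage of its Pdcd1f/f mean (vertical axis). Symbols mark the replicate, blue is Pdcd1f/f, red is Pdcd1f/fLysMcre and bars are genotype means. Rel, Nfkb1, Nfkbie and Nfkbiz were higher in all 3 Pdcd1f/fLysMcre libraries than in any Pdcd1f/f library, and Tnfaip3 was lower.

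Rel (ENSMUSG00000020275, chr11:23736847-23770970, minus strand of GRCm38) encodes c-Rel, an activating subunit prominent in lymphoid and myeloid cells. Its normalized counts were 17286, 14593 and 14247 without Cre (Pdcd1f/f, in the order of replicates 1 to 3, as in all values that follow) and 19871, 19287 and 17392 with Cre (Pdcd1f/fLysMcre). The groups did not overlap, but the highest Pdcd1f/f library and the lowest Pdcd1f/fLysMcre library lay close together. The log2 fold change was 0.30 ± 0.085 (SE), a 1.23-fold higher level with a 95% confidence interval of 1.08 to 1.40, and edgeR's adjusted p was 0.0697. Without Pdcd1f/f replicate 1, the log2 fold change was 0.38 and edgeR's adjusted p 0.0029, while without each of the other 5 libraries in turn it was 0.24 to 0.34 and did not pass (adjusted p of 0.0705 to 0.269). With all 6 libraries Rel passed in DESeq2 (adjusted p of 0.0228) and in edgeR over all genes with a count (0.0017), so both a library and the fit moved it across the threshold.

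Nfkb1 (ENSMUSG00000028163, chr3:135584655-135691547, minus strand) encodes p105, which is processed to the subunit p50. It had normalized counts of 10058, 9931 and 10180.3 in Pdcd1f/f TAMs and 11491, 11114 and 11589 in Pdcd1f/fLysMcre TAMs. The replicates were tight, with coefficients of variation of 1.2% and 2.2%, and the groups stood apart. This was a log2 fold change of 0.18 ± 0.056 with an adjusted p of 0.083 in edgeR.

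Nfkb2 (ENSMUSG00000025225, chr19:46304320-46312385, plus strand), which encodes p100, the precursor of p52 in the NIK branch, had values of 9732, 11953 and 12514 against 11283, 9589.55 and 12641. The lowest library of each genotype was one of the 2 that stood apart by GC content, and the groups overlapped over nearly their whole range. The log2 fold change was -0.03 ± 0.11, with edgeR's adjusted p at 0.907. An lncRNA on the other strand (AC114539.1, mean normalized count of 580) overlaps Nfkb2, and whether reads were counted by strand is not given in the sources used here.

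Rela (ENSMUSG00000024927, chr19:5637483-5648130, plus strand) encodes p65, the main activating subunit of the canonical pathway. It had normalized counts of 5316, 6236 and 6431 against 6193, 5418 and 6090.1. Relb (ENSMUSG00000002983, chr7:19606217-19629438, minus strand), the partner of p52, had 2916, 3269 and 3405 against 3238, 2760.01 and 3439. In both genes the groups overlapped, with the lowest values again in Pdcd1f/f replicate 1 and Pdcd1f/fLysMcre replicate 2. The log2 fold change was -0.02 for each, with SE of 0.086 and 0.093 and edgeR's adjusted p at 0.907 and 0.912. The 95% intervals, 0.864 to 1.12 for Rela and 0.855 to 1.14 for Relb as folds, leave room for changes in either direction.

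As a share of the summed level per kb of the 5 subunit genes, Rel made up 25.4% ± 3.93 in Pdcd1f/f and 29.3% ± 2.97 in Pdcd1f/fLysMcre TAMs. Nfkb2 made up 30.4% ± 2.66 and 28.1% ± 2.55, and Rela 23.9% ± 1.36 and 22.2% ± 0.367. Library values overlapped between the genotypes for all 5 shares. The shares also depended on the length used. By the longest transcript of each gene Rel (2059 per kb in Pdcd1f/f and 2525 in Pdcd1f/fLysMcre TAMs) lay below Nfkb2 (2964 and 2905) and Nfkb1 (2424 and 2747). In Pdcd1f/f TAMs it then also lay below Rela (2207), so its share would be smaller. In counts adjusted for GC content and length the shares were 26.3% to 27.6% against 26.9% to 28.3% for Rel, 29.0% to 29.8% against 28.6% to 30.2% for Nfkb2 and 22.6% to 23.5% against 21.9% to 24.0% for Rela. The 3 smallest unadjusted shares of Rel came from the 3 libraries in which GC-rich genes stood highest (rho of 0.52 to 0.71).

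Nfkbia (ENSMUSG00000021025, chr12:55489410-55492647, minus strand) encodes IkBa, the inhibitor that is degraded and resynthesized in each round of activation. Its normalized counts were 54085, 58678 and 60152 in Pdcd1f/f TAMs and 53064, 53216 and 54526 in Pdcd1f/fLysMcre TAMs. The Pdcd1f/fLysMcre values were the more uniform (coefficients of variation of 1.5% and 5.5%, in that order), and they overlapped with Pdcd1f/f replicate 1 alone. They gave a log2 fold change of -0.10 ± 0.062 with an adjusted p of 0.34 in edgeR. Without Pdcd1f/f replicate 1 the log2 fold change was -0.16 (edgeR's adjusted p of 0.0779).

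Nfkbie (ENSMUSG00000023947, chr17:45555703-45563169, plus strand) encodes IkBe, a slower inhibitor in the same family. Here the direction was the opposite one, with 16364, 17664 and 17628 in Pdcd1f/f and 19903, 18700.1 and 20873 in Pdcd1f/fLysMcre TAMs. The groups did not overlap. Their difference was 0.21 ± 0.066 on the log2 scale, a 1.15-fold higher level (95% interval of 1.04 to 1.28), and edgeR's adjusted p was 0.0936.

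Tnfaip3 (ENSMUSG00000019850, chr10:19000910-19015657, minus strand) encodes A20, which removes and edits ubiquitin chains on signaling proteins upstream of IKK. It had 57593, 57644 and 57721 in Pdcd1f/f TAMs, a coefficient of variation of 0.112%, and 54346, 52704 and 54984 in Pdcd1f/fLysMcre TAMs. All 3 Pdcd1f/fLysMcre libraries lay below the Pdcd1f/f libraries. The log2 fold change was -0.09 ± 0.056 with an adjusted p of 0.338 in edgeR.

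Nfkbiz (ENSMUSG00000035356, chr16:55811375-55838899, minus strand) encodes IkBz, a nuclear IkB protein induced by Toll-like receptor signals that supports a second set of target genes such as Il6. It had 26024, 26921 and 27992 against 28404, 28209 and 28309. The Pdcd1f/fLysMcre libraries lay just above the highest Pdcd1f/f library, and the log2 fold change was 0.07 ± 0.058 (adjusted p of 0.476, edgeR). Without Pdcd1f/f replicate 1 it was 0.037 (adjusted p of 0.703). Bcl3 (ENSMUSG00000053175, chr7:19808462-19822770, minus strand), which encodes a nuclear partner of p50 and p52, had 1292, 1629 and 1663 against 1479, 1275 and 1529.9. Its groups overlapped, with the lowest value of each genotype in the libraries that stood apart, and the log2 fold change was -0.09 ± 0.11 (adjusted p of 0.632, edgeR).

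Ratios between members within a library were computed for 5 pairs chosen after the values were seen, and are descriptions with no test. The ratio per kb of Nfkbia to Nfkbie was 6.25, 6.28 and 6.45 in Pdcd1f/f and 5.04, 5.38 and 4.94 in Pdcd1f/fLysMcre TAMs. The ratio of Tnfaip3 to Nfkb1 was 9.56, 9.69 and 9.46 against 7.89, 7.91 and 7.92. Both were lower in every Pdcd1f/fLysMcre library. For the second this follows from its genes, since Tnfaip3 lay lower and Nfkb1 higher in these libraries without overlap. The GC content was 52.9% and 55.4% in the first pair and 47.1% and 44.9% in the second. Its part in the ratios was not tested. The ratio of Rel to Rela, a pair far apart in GC content (42.5% and 59.4%), overlapped between the genotypes, with 1.34, 0.963 and 0.912 against 1.32, 1.46 and 1.18. The ratios of Nfkbia to Rela (17.8 to 19.4 against 16.4 to 18.7) and of Rel to Nfkb1 (2.26 to 2.78 against 2.42 to 2.80) overlapped as well. The size of the ratios with Nfkb1 rests on its 12061 bases of exon, while the comparison between genotypes does not depend on length. By longest transcripts Rel lay below Nfkb1 (2059 against 2424 per kb in Pdcd1f/f, 2525 against 2747 in Pdcd1f/fLysMcre TAMs), which turns their ratio the other way. Tnfaip3 was then at 9300 per kb in Pdcd1f/f and 8713 in Pdcd1f/fLysMcre TAMs. In counts adjusted for GC content and length, the ratios of Nfkbia to Nfkbie (6.01, 6.37 and 6.80 against 5.0, 5.15 and 5.07) and of Tnfaip3 to Nfkb1 (9.92, 9.47 and 9.14 against 8.12, 7.98 and 7.80) were again lower without overlap. That of Nfkbia to Rela was then lower too (18.0 to 20.2 against 15.8 to 17.8), while those of Rel to Rela (1.14 to 1.18 against 1.15 to 1.23) and of Rel to Nfkb1 (2.28 to 2.79 against 2.42 to 2.83) overlapped.

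The members range in GC content from 42.5% (Rel) to 62.6% (Bcl3), and in the 2 libraries that stood apart they deviated by different amounts. In Pdcd1f/f replicate 1, Bcl3 deviated by -21.5% and Nfkb2 by -20.5% from the mean of the other Pdcd1f/f libraries, and Rel by 19.9%. In Pdcd1f/fLysMcre replicate 2, Nfkb2 deviated by -19.8% and Relb by -17.3% from the mean of the others of that genotype, and Rel by 3.51%. Tnfaip3 and Nfkb1, of low GC content, deviated by between -3.69% and 0.0209% in these libraries. Each genotype held 1 such library. In Pdcd1f/fLysMcre replicate 3 the deviations ran the other way and were about as large (Nfkb2 21.1%, Relb 14.7% and Rel -11.2%). Rel stood further above the others of its genotype in Pdcd1f/fLysMcre replicate 1 (8.35%) than in replicate 2.

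**Figure D3:**
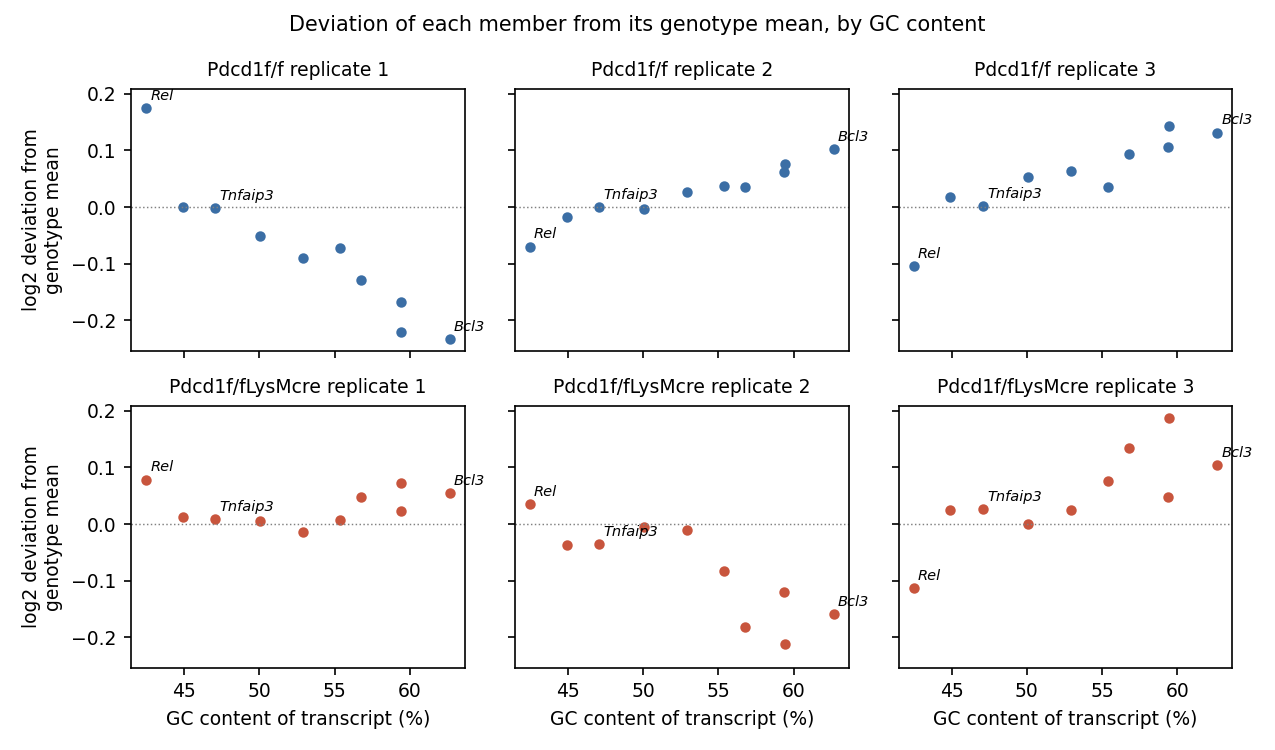
Deviation of each member from the mean of its genotype (log2, vertical axis) against the GC content of its longest transcript (%, horizontal axis), 1 panel for each library. Members of high GC content such as Bcl3 lay low in Pdcd1f/f replicate 1 and Pdcd1f/fLysMcre replicate 2, where Rel lay above its genotype mean. Rel also lay above it in Pdcd1f/fLysMcre replicate 1.

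The comparison was repeated with offsets fitted to each library's trend on GC content and gene length. With them edgeR called 4 members higher, Rel, Nfkbie, Rela and Nfkb2, against 10.6% of all genes, and Tnfaip3 lower, against 7.8%. Nfkbie had the largest change of the members here, at a log2 fold change of 0.32 ± 0.039 (adjusted p of 2.0e-05, edgeR). Nfkb2, Rela, Relb and Bcl3 turned from below to above 0 (log2 fold changes of 0.15, 0.17, 0.11 and 0.15), so no direction can be given for these 4. In the adjusted counts 7 members lay higher without overlap, all but Nfkb1, Nfkbia and Tnfaip3, against 19.8% of all genes, and Tnfaip3 lay lower, against 14.8%.

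A term for the 2 libraries that stood apart, added to the edgeR model after the data were seen, left the fold changes almost as they were and narrowed their errors. Nfkb1, Rel and Nfkbie were then called higher (adjusted p of 8.7e-04, 5.9e-04 and 2.2e-04), against 15.9% of all genes, and Nfkbia and Tnfaip3 lower (0.0424 and 0.0498), against 15.4%. Over all 17 alternatives to the edgeR fit, the log2 fold changes of Rel, Nfkb1, Nfkbie and Nfkbiz were above 0 in each and those of Nfkbia and Tnfaip3 below 0 in each. That of Nfkbia was close to 0 with the offsets (-0.0093, edgeR's adjusted p of 0.897), and that of Nfkb1 was smaller there (0.12) and smallest with the offsets and without Pdcd1f/f replicate 1 (0.062). Rel passed the threshold in 9 of the 17, Nfkbie in 6, Tnfaip3 in 4, Nfkb1, Nfkb2 and Rela in 3 each, Nfkbia in 2 and Nfkbiz, Relb and Bcl3 in 0. Leaving aside the 3 alternatives that were chosen after the data were seen, Rel passed in 6 of 14, Nfkbie in 3, Tnfaip3, Nfkb2 and Rela in 2 each, Nfkb1 in 1 and Nfkbia in 0. Every alternative in which a member passed also called more genes in all (1027 to 4525) than the main fit (786). All alternatives drew on the same libraries, so these tallies do not count independent tests.

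**Figure D4:**
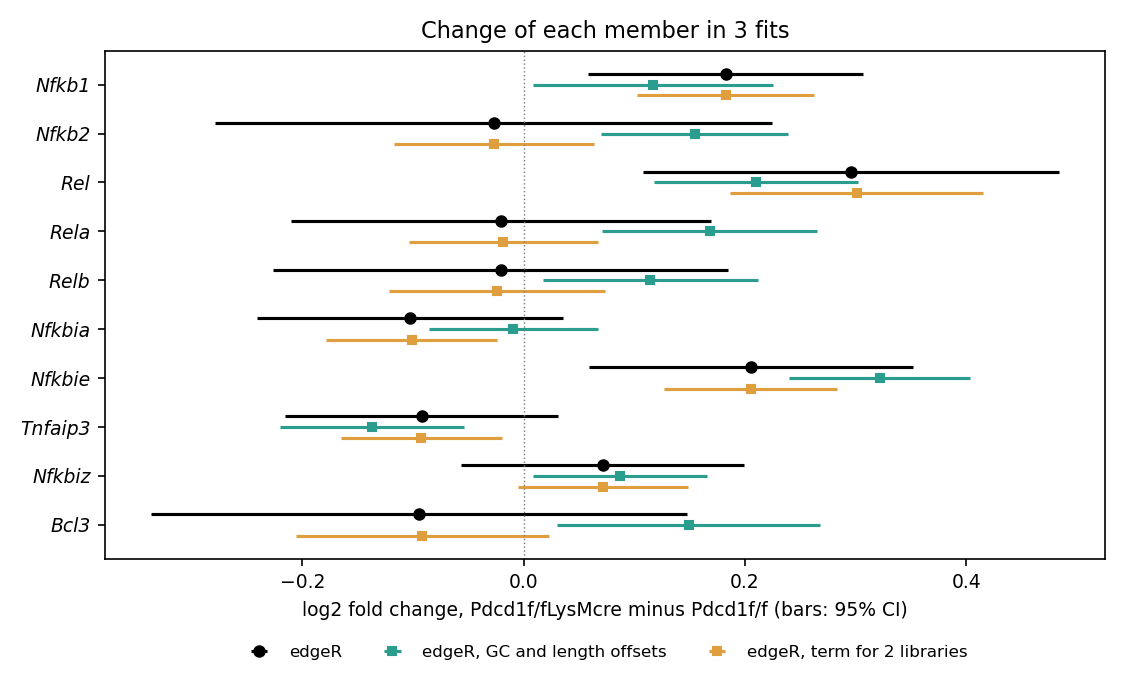
log2 fold change of each member, Pdcd1f/fLysMcre minus Pdcd1f/f, with 95% confidence intervals, from edgeR (black), edgeR with GC and length offsets (green) and edgeR with a term for the 2 libraries that stood apart (orange). Rel, Nfkb1 and Nfkbie lay above 0 in all 3 fits, and Nfkb2, Rela, Relb and Bcl3 changed sign with the offsets.

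By the mean centred profile of the 10 members over the 6 libraries, the genes outside the list with the most similar profile were Pip4k2c, Slc6a8, Polr3c, Arl8a and Exosc10, with root mean square distances of 0.014 to 0.018 (log2) among 6717 genes with a mean normalized count of at least 1000. The members themselves lay 0.045 (Nfkbiz) to 0.20 (Rel) from this mean. It was lowest in Pdcd1f/f replicate 1 (-0.098) and Pdcd1f/fLysMcre replicate 2 (-0.062), the libraries that stood apart by GC content. Median GC content was 54.2% in the members and 49.2% in all genes tested. The part of GC content in this likeness was not tested.

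The wider pathway was described with 4 lists of 88 genes in all, chosen with earlier results of these data known. Of 25 genes for IKK kinases and their adaptors, edgeR called 1 higher and 0 lower, against 2.42% and 3.01% of all genes (3 and 1 at an unadjusted p below 0.05, against 12.3% and 11.9%, and 3 and 0 by DESeq2, against 5.23% and 5.82%), with a median log2 fold change of -0.016. The gene was Fbxw11, which encodes the F-box protein of a ubiquitin ligase that recognizes phosphorylated IkB. It rose from 7490.4 ± 127 to 8879 ± 191 normalized counts (log2 fold change 0.25 ± 0.057, adjusted p of 0.0328). Of 8 tested genes of the NIK branch, the route that processes p100, edgeR and DESeq2 called 0, and 1 was higher at an unadjusted p below 0.05 in edgeR, against 12.3% of all genes.

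Among 20 other IkB proteins and brakes, edgeR called 2 higher and 1 lower, against 2.42% and 3.01% of all genes. Without overlap 6 lay higher and 3 lower, against 14.1% and 13.1%. Tnip3, which encodes an A20-binding inhibitor of NF-kB, rose from 1546 ± 164 to 2084 ± 133 (0.43 ± 0.089, adjusted p of 0.0203), and Otud7b, a deubiquitinase related to A20, rose from 842 ± 55.0 to 1053 ± 36.3 (0.32 ± 0.081, 0.0446). Tnfaip8l2, which encodes TIPE2, a brake on Toll-like receptor signaling, fell from 1165 ± 180 to 737 ± 92.4 (-0.66 ± 0.13, 0.0167).

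The paper had already reported Clec4e, Cd80, Il6, Il1a, Il1b and Il23a, all on the list of target genes, as raised in these TAMs. Counts for this list are therefore a description and no test of NF-kB output. Among the 35 target genes, edgeR called 8 higher and 3 lower, against 2.42% and 3.01% of all genes, and DESeq2 10 and 4, against 5.23% and 5.82%. The median log2 fold change was 0.10, and 16 lay higher and 5 lower without overlap, against 14.1% and 13.1%. The 4 with the largest changes among those past edgeR's threshold were Cxcl3, Ccl5, Clec4e and Il1a. Cxcl3, a neutrophil-attracting chemokine, rose from 5018, 5260.1 and 5459.8 to 9447, 9904 and 9503 (0.88 ± 0.061, edgeR's adjusted p of 2.8e-05), and Il1a, an alarm cytokine, from 3105, 2985 and 2883 to 4617, 5315 and 4561. Clec4e, the receptor Mincle, rose from 11988, 10619.7 and 10439.8 to 17317, 19561 and 16889. Ccl5, a T cell-attracting chemokine, fell from 1004, 1079 and 1062 to 538, 567 and 645 (-0.84 ± 0.092, edgeR's adjusted p of 7.1e-04). The groups stood well apart in each of these genes.

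The other target genes past the threshold were Il1b, Il6, Ptgs2, Cd80 and Traf1, which rose (log2 fold changes of 0.31 to 0.57), and Vcam1 and Irf1, which fell (-0.56 and -0.36). Tnf, the classical target, had a log2 fold change of -0.20 that did not pass in edgeR (adjusted p of 0.0859) and passed in DESeq2 (0.0406) and in edgeR with the offsets (0.0454), with the term for the 2 libraries (0.00081) and without Pdcd1f/f replicate 1 (0.0175). Il23a, with the largest log2 fold change of the list (1.0 ± 0.29), had few counts (18 to 20 against 36 to 46). It did not pass in edgeR (adjusted p of 0.0699), in DESeq2 (0.0521) or in edgeR without Pdcd1f/f replicate 1 (0.0832). It passed in edgeR with the offsets (0.0274) and with the term (0.0201). Many of these genes also respond to factors other than NF-kB.

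The counts for these lists depended on the fit. With the offsets edgeR called 10.6% of all genes higher and 7.8% lower, without Pdcd1f/f replicate 1 it called 10% and 11.5%, and with the term for the 2 libraries 15.9% and 15.4%. In that order it called 3, 4 and 6 of the IKK kinases and adaptors higher and 0, 3 and 3 lower. In the NIK branch it called 1, 1 and 3 higher and 0, 2 and 2 lower. Of the other IkB proteins and brakes it called 6, 4 and 7 higher and 1, 2 and 2 lower. Of the target genes it called 12, 10 and 16 higher and 4, 7 and 8 lower.

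**Figure D5:**
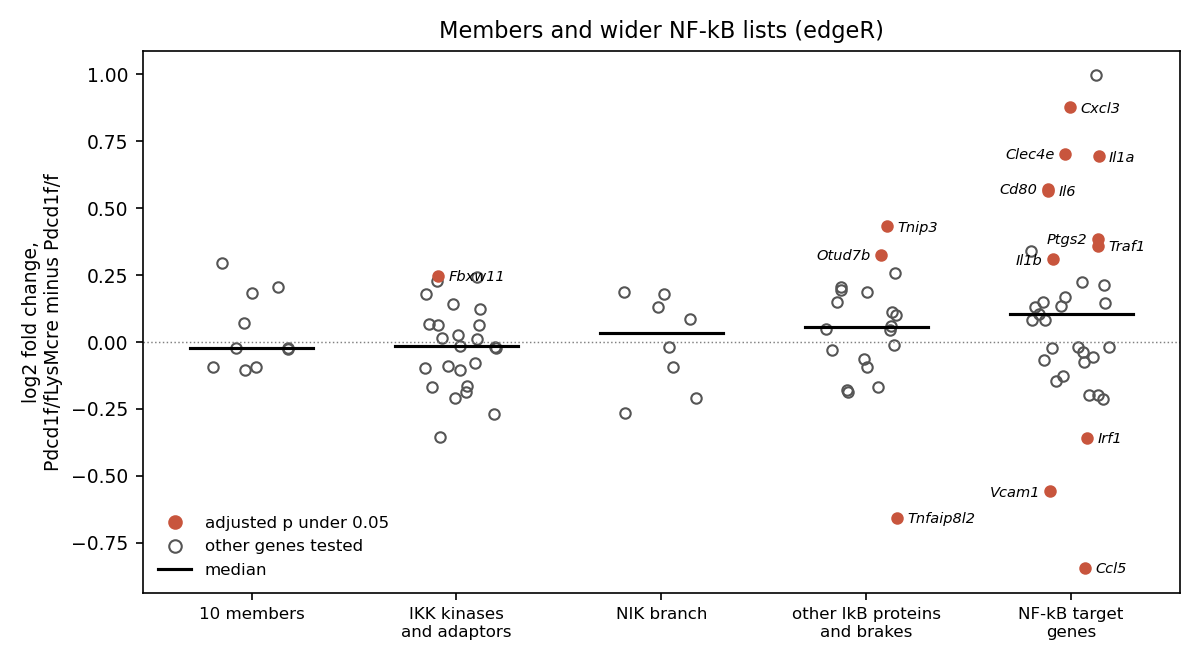
log2 fold change, Pdcd1f/fLysMcre minus Pdcd1f/f, of each tested gene (points, spread sideways for visibility) in the 10 members and 4 wider lists, from edgeR. Filled red points passed an adjusted p of 0.05 and bars are medians. No member was filled, and 11 of the 35 target genes were.

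The marker lists were set beside these values. Of 10 macrophage markers edgeR called 7 lower, Lyz2 among them, against 3.01% of all genes. The summed normalized counts of the other 9 were 315593 to 376914 in Pdcd1f/f and 254889 to 278389 in Pdcd1f/fLysMcre libraries. Among the genes that mark other cells, Ly6g, Elane and Camp (neutrophils), Cd8a and Cd8b1 (T cells) and Cd79a and Pax5 (B cells) had at most 3 counts in any library, while others were well above 0, among them Csf3r with a Pdcd1f/f mean of 2412 normalized counts, Dcn with 1607, S100a8 with 1253, Pecam1 with 1082, Cd4 with 611 and Cd79b with 181. Dendritic cell markers summed to 247 to 325 against 329 to 394, neutrophil markers to 4219.96 to 4540.3 against 3819 to 3953 (with means of 2412 against 1694 for Csf3r, and of 1253 against 1472 for S100a8 and 575 against 626 for S100a9, in the other direction), tumor and stromal markers to 4385 to 4568 against 3782 to 4155, B cell markers to 350.5 to 394 against 301 to 356, and T and NK cell markers to 625 to 703 against 560.4 to 681. Immediate-early and heat shock genes known to respond to tissue digestion, among which the inhibitors of NF-kB are often counted, summed to 387084 to 463429 in Pdcd1f/f and 349377 to 385631 in Pdcd1f/fLysMcre libraries, with 3 of 15 genes called lower by edgeR (Jun, Atf3 and Btg2) and 6 by DESeq2, against 3.01% and 5.82% of all genes. At an unadjusted p below 0.05 in edgeR 8 were lower, against 11.9%, and 10 lay lower without overlap, against 13.1%. None was called higher by edgeR or DESeq2 or had an unadjusted p below 0.05 in that direction in edgeR. With the offsets edgeR called 1 higher and 5 lower, against 10.6% and 7.8% of all genes. Without Pdcd1f/f replicate 1 and with the term for the 2 libraries it called 9 lower each, against 11.5% and 15.4%, and 0 higher. The part of the listed genes in the members' values was not tested.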

How the data were processed

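The authors removed adapters, aligned paired-end 42-nt reads to GRCm38 and counted them on Ensembl genes. The submitters' processing notes name FastQC 0.11.5, Cutadapt 2.5, STAR 2.7.3a, featureCounts of Subread 1.6.2 and DESeq2 1.24.0. How multi-mapped reads were treated is not given in the sources used here. The authors deposited raw counts per gene and a table of normalized counts (a signal, the counts divided by 1 size factor per library, between 0.895 and 1.08). Groups came from the labels.

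Raw counts were compared with edgeR 4.0.16 (R 4.3.3): filterByExpr (minimum count of 10), TMM, glmQLFit, the two-sided glmQLFTest and Benjamini-Hochberg adjustment over 14469 genes, with a threshold of 0.05. DESeq2 1.42.0, limma 3.58.1 on log2(value + 1) and the other alternatives are given in the closing section. The scripts were tested on simulated data, where no changed gene was called in the wrong direction. The planted changes were larger than those of the members and no GC trend was planted, so this does not bear on the members' signs. Values per library are the deposited normalized counts. The smallest p of an exact permutation test of 3 against 3 libraries is 0.1, so none was used. Positions, exon lengths and GC content came from GENCODE M21 and promoters from RefSeq.

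The members and gene lists were chosen with earlier results of these data known. All members are named. From each wider list up to 4 genes past the threshold with the largest change are named by rule, other target genes past it were added, and Tnf and Il23a were named after their values were seen.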

Additional observations from a re-analysis of the deposited data

How the results depend on the processing

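The number of genes called was 786 with edgeR, and close to it with RLE size factors (782), at least 10 counts in every library (816) and limma (756), with 0 members called in each. The number was 1599 of 14469 with DESeq2 (3 members) and 1951 of 26637 with all genes that had a count (1 member, Rel). It was 2664 of 14469 with GC and length offsets (5 members) and 2756 of 14469 with the offsets and the replicate block (5 members). Leaving out each library gave 222 to 3181 genes, of 14740 to 14870 tested, and 0 to 1 members. The count was lowest without Pdcd1f/fLysMcre replicate 1 and highest without Pdcd1f/f replicate 1. Without Pdcd1f/f replicates 2 and 3 the counts were 224 and 354, and without Pdcd1f/fLysMcre replicate 2 the count was 370. Alternatives chosen after seeing the data gave 3373 of 14754 genes and 5 members with offsets and without Pdcd1f/f replicate 1. They gave 3757 of 14354 genes and 4 members without the pair of libraries that stood apart. With a term for that pair they gave 4525 of 14469 genes and 5 members. The cause of these shifts was not tested.

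The replicate numbers do not pair the libraries by any label, and deviations of same-numbered libraries correlated at -0.014, -0.092 and 0.20. With the replicate block edgeR called 1027 genes and 1 member (Rel, log2 fold change 0.30, adjusted p of 0.0263).

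Signs reversed in 4 members. With the offsets the log2 fold changes were 0.15 (Nfkb2), 0.17 (Rela), 0.11 (Relb) and 0.15 (Bcl3), with the offsets and the block 0.15, 0.17, 0.11 and 0.15, and with the offsets and without Pdcd1f/f replicate 1 they were 0.15, 0.19, 0.13 and 0.16. Leaving out each library moved Nfkb2 between -0.14 and 0.072, Rela between -0.11 and 0.038, Relb between -0.096 and 0.065 and Bcl3 between -0.21 and -0.019. The median of all genes moved by less than 0.02 in every setting. The spread limits what could be seen in members of high GC content: the 95% interval of Nfkb2 ran from 0.824-fold to 1.17-fold.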
